A study of Mus musculus with 6 samples.

Results

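The proteases that cut the extracellular matrix and shed cell surface proteins, together with their tissue inhibitors, were examined in 3T3-L1 adipocytes exposed to leukemia cell conditioned media (LCM). Members were all genes named alone by an array transcript whose symbol was Mmp, Adam, Adamts, Adamtsl or Timp followed by a number, and this gave 65 of the 14860 genes tested. They comprised 20 matrix metalloproteinases (Mmp), 4 tissue inhibitors (Timp), 25 Adam genes, 12 Adamts genes and 4 Adamtsl genes. The RefSeq gene table holds 85 symbols of this form. The other 20, among them Adam17, Mmp15, Mmp25 and Adamts9, had no transcript that named them alone and were not members. Some of the 20 share a transcript with other genes, and these transcripts are described at the end. 3T3-L1 is a mouse pre-adipocyte line, here under 6 passages, and its cells were turned into adipocytes over 7 days with an adipogenic cocktail. The LCM group was 3 cultures of these adipocytes held in LCM for 24 hours, and the control group was 3 cultures held in regular media, with an Affymetrix array for each culture. In the labels, LCM came from 8093 cells, a mouse acute lymphoblastic leukemia line, grown for 48 hours in RPMI 1640 with 10% serum, IL-3 and BME, whereas the methods of the study name the human line BV173 for conditioned media, so the source of LCM is not settled. The labels keep all adipocytes in RPMI 1640 with 10% serum, the methods name DMEM, and no source used here says whether the control medium held IL-3 and BME. All cultures derive from a single cell line.

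Matrix metalloproteinases are secreted or membrane-bound zinc enzymes that are made as inactive precursors and together can degrade most matrix proteins. ADAM proteins are membrane-anchored and release the outer parts of growth factors and receptors, ADAMTS enzymes are secreted and cut proteoglycans and procollagens, and ADAMTS-like proteins resemble them but have no protease domain. Tissue inhibitors block the active site of metalloproteinases, and in fat tissue the balance between both shapes the space in which adipocytes enlarge.

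Values were log2 expression values made by the authors with RMA, and limma compared the groups in a fit over the whole set of genes (p-values adjusted by Benjamini-Hochberg, threshold 0.05). The median log2 expression of the arrays lay between 7.60 and 7.68. Control arrays correlated with each other at 0.980 to 0.987 and LCM arrays at 0.990 to 0.994. The median SD of a member was 0.11 among control arrays and 0.09 among LCM arrays. Only 3 arrays per group limit the precision, and an exact two-sided permutation test of 3 against 3 cannot give a p below 0.1. Defining adipocyte markers were present, since 7 of 9 lay in the upper quartile of all genes by array signal. The median of the adipocyte markers ran from 12.20 to 12.23 on the control arrays and from 11.62 to 11.68 on the LCM arrays. Adipoq and Cidec fell among the 9 (22.2% passed, against 4.26% of all genes). With each of the 6 arrays left out in turn, each of these genes passed in 1 of the 6 fits. At an unadjusted p under 0.05 from limma 8 of the 9 were lower, against 10.3% of all genes. None of 7 measured pre-adipocyte markers passed (2 lower at an unadjusted p under 0.05 from limma, against 10.3% of all genes). A log2 fold change below 0 was found in 4 of the 7, against 8538 of all 14860 genes (median of the 7 -0.06, from -0.42 for Pdgfra to 0.18 for Vim). The median level of this list, which is the value of Pdgfrb on 5 of the 6 arrays, ran from 10.69 to 10.82 in control and from 10.81 to 10.89 in LCM. None of 7 measured markers of B-lymphoid leukemia cells passed either (0 at an unadjusted p under 0.05 from limma). Ptprc, a leukocyte gene, is in this list and in the macrophage list. Their median ran from 4.41 to 4.60 in control and from 4.47 to 4.61 in LCM. Of 6 macrophage markers Cd68, a lysosomal protein, rose, and it passed in 2 of the 6 fits with an array left out. The median of the list ran from 5.72 to 5.88 in control and from 5.67 to 5.84 in LCM. RMA values have no zero, so no marker can be called absent. Whether these shifts in marker levels had a part in the results below was not tested.

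Of the 65 members, Mmp11 and Mmp13 rose with LCM, Adam12 and Adamts12 fell, and 61 did not pass. The share that passed was 6.15% of members and 4.26% of all genes tested, so the share among the members was close to that of the whole array. By direction, 2 of the 65 members rose, against 341 of 14860 genes (2.29%), and 2 of the 65 fell, against 292 genes (1.97%). The median log2 fold change was -0.03 over the members and -0.03 over all genes. In 14 members (21.5%) the 3 LCM values lay wholly above or below the 3 control values, 6 higher and 8 lower, against 27.5% of all genes (12.8% higher and 14.7% lower). At an unadjusted p under 0.05 stood 12 members, 5 higher and 7 lower, against 19.6% of all genes (9.25% higher and 10.3% lower). In whole cultures, fewer cells of a type and less RNA per cell cannot be told apart.

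Mmp11, also called stromelysin-3, was the largest rise among the 65 members. It is unusual among matrix metalloproteinases in that furin activates it inside the cell, it does not degrade the usual matrix proteins well, and mice that lack it gain more fat. Its log2 expression was 9.62, 9.40 and 9.79 on control replicates 1, 2 and 3 and 10.61, 10.70 and 10.93 on LCM replicates 1, 2 and 3. The lowest LCM value stood well above the highest control value. Mmp11 rose 2.21-fold (log2 fold change 1.15, 95% interval 0.85 to 1.44, adjusted p = 0.00738 from limma). It passed in all 6 subsets of 5 arrays, at an adjusted p between 0.00745 and 0.0488 from limma.

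Mmp13 is the main interstitial collagenase of the mouse and opens the triple helix of fibrillar collagen. It was measured at 5.64, 5.84 and 5.65 in control and at 6.35, 6.30 and 6.23 in LCM, with no overlap between the groups. Mmp13 rose by 0.59 on the log2 scale (95% interval 0.39 to 0.78, adjusted p = 0.0139 from limma). Its array signal was low, at the 24.5 percentile of all genes, so it was dropped by filters on dim genes. Mmp13 passed without control replicate 2 or 3 (adjusted p = 0.00629 and 0.0448 from limma) but not without control replicate 1 (0.0620) or LCM replicate 1, 2 or 3 (0.0752, 0.0799 and 0.0704).

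Adam12, or meltrin alpha, cleaves binding proteins of insulin-like growth factors and takes part in the formation of fat cells in mice. Its log2 expression was 9.00, 9.16 and 8.86 in control and 8.15, 8.21 and 8.09 in LCM. All LCM cultures lay below all control cultures. Adam12 fell by 0.86 on the log2 scale (95% interval -1.08 to -0.64, adjusted p = 0.00738 from limma), a 1.82-fold difference. It passed in 5 of the 6 subsets of 5 arrays, and its adjusted p was 0.0513 without LCM replicate 3.

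Adamts12 is a secreted protease that cuts cartilage oligomeric matrix protein. It gave 11.20, 11.18 and 11.19 in control and 10.76, 10.69 and 10.53 in LCM. The control values were almost identical, and the LCM values all lay below them. Adamts12 fell by 0.53 on the log2 scale (95% interval -0.72 to -0.34, adjusted p = 0.0167 from limma). It passed without control replicate 2 (adjusted p = 0.0174 from limma), and without control replicate 1 or 3 (0.0682 and 0.0505) or LCM replicate 1, 2 or 3 (0.0571, 0.0834 and 0.0748) it did not.

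By the methods' t-test with Benjamini-Hochberg adjustment, 0 of these 4 genes passed, at adjusted p-values from 0.0554 to 0.0641 unpaired and from 0.312 to 0.343 paired by replicate number. Without adjustment, 11 members (16.9%) had a p under 0.05 in the unpaired form against 2603 of all genes (17.5%). In the paired form these were 10 members (15.4%) against 1761 genes (11.9%).

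**Figure D1:**
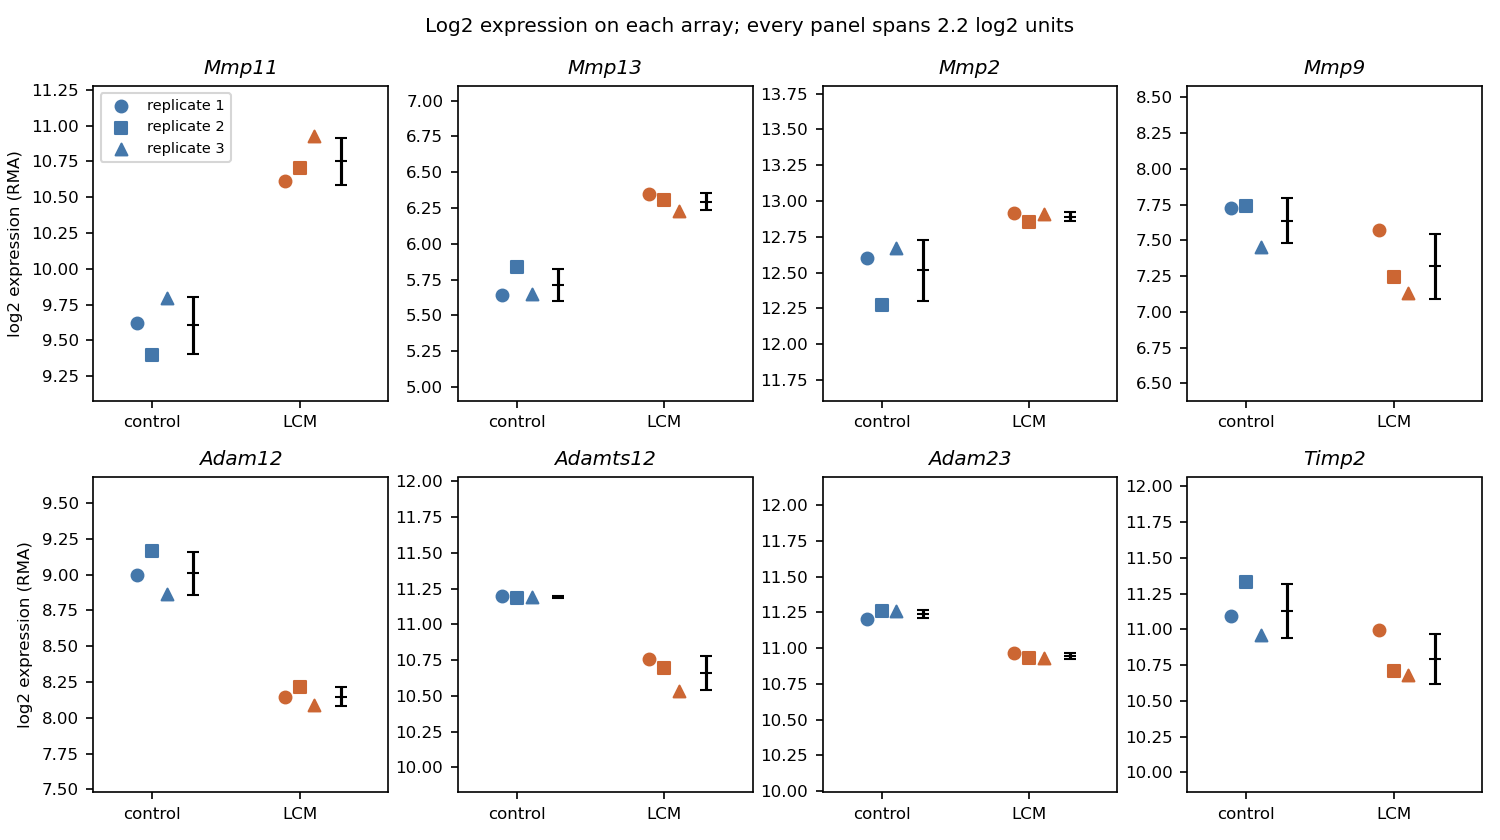
Log2 expression (vertical axis, RMA values) of 8 members on each array, with control in blue and LCM in orange, symbols for the replicate number, and black bars for the mean and SD of 3 arrays. The groups are apart for Mmp11, Mmp13, Mmp2, Adam12, Adamts12 and Adam23, and they overlap for Mmp9 and Timp2.

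The sequences before the start of the called genes are shown because these genes moved with LCM, and they let the letters near each start be read beside the changes. RefSeq windows of GRCm38.p6 were given for 40 of the 65 members and for 3 of the 4 genes that passed (not Adam12). The 250 bases that precede the annotated start are printed 5′ to 3′ on the strand of the gene, with matches to searched motifs in capitals. The windows lie at chr10:75932503-75932752 on the minus strand for Mmp11, chr9:7272264-7272513 on the plus strand for Mmp13 and chr15:11064523-11064772 on the plus strand for Adamts12.
Mmp11: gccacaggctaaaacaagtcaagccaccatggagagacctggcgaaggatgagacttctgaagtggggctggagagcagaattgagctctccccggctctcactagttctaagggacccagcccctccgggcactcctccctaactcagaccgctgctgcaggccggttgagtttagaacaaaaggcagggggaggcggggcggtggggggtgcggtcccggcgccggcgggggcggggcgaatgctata
Mmp13: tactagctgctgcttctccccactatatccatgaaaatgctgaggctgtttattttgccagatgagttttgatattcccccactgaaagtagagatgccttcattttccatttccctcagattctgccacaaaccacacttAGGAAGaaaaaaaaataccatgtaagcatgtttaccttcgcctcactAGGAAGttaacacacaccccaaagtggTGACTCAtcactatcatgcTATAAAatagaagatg
Adamts12: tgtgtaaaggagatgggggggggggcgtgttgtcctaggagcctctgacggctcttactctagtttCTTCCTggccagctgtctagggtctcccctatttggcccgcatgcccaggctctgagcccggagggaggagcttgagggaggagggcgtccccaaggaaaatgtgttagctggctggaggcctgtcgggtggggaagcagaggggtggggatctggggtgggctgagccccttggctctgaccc
The motifs searched on both strands were AP-1 (TGANTCA), PEA3 of the ETS family (AGGAAG), a composite of C/EBP and ATF (TTGCATCA), the hypoxia response core (ACGTG), the antioxidant response core (TGACNNNGC) and the TATA box (TATAAA). Mmp13 held AP-1 letters 35 to 29 bases before its start, a TATA box 16 to 11 bases before it, and PEA3 letters from 109 and from 62 bases before it. Adamts12 held PEA3 letters 184 to 179 bases before its start, on the opposite strand, and the Mmp11 window held none of the 6 motifs. No matches overlapped in these windows. Of all 32851 windows of this length, 6.75% held AP-1 letters, 29.5% PEA3, 0.791% the composite, 16.6% the hypoxia core, 10.2% the antioxidant core and 12.4% the TATA box. G and C made up 63.2% of the bases for Mmp11, 63.2% for Adamts12 and 40.4% for Mmp13.

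Of the 45 member windows, 28.9% held the TATA box, 37.8% PEA3 letters, 24.4% AP-1 letters, 20% the hypoxia core, 6.67% the antioxidant core and 0% the composite. AP-1 letters stood in 11 windows, and 8 of these 11 belong to neighbouring matrix metalloproteinase genes on chromosome 9, which are close relatives. Of the 11 members that held them, Mmp13 passed, and of the 29 members with a window and no AP-1 letters 2 passed. The median log2 fold change was 0.07 with and 0.003 without the letters. A match of letters is a description of the sequence and not of a bound factor.

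Among the 20 matrix metalloproteinases, 2 rose and none fell (4 higher and 1 lower at an unadjusted p under 0.05 from limma), with a median log2 fold change of -0.01. Among all genes 2.29% rose and 1.97% fell, and without adjustment 9.25% were higher and 10.3% lower. The collagenases Mmp1a, Mmp1b and Mmp8 had log2 fold changes of -0.03, 0.07 and 0.04, next to the rise of Mmp13. Mmp13 begins a run of 10 neighbouring protein-coding Mmp genes on chromosome 9, of which 9 were measured. The other 8 measured genes of this run, from Mmp10 at -0.11 to Mmp3 at 0.28, did not pass. Mmp1a and Mmp1b are closely related copies, and how far their transcripts are measured apart is not known here.

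The gelatinases Mmp2 and Mmp9 cut denatured collagen and the collagen of basement membranes. Mmp9, which the study mentions among tumor-promoting factors that adipocytes secrete, had log2 expressions of 7.72, 7.74 and 7.45 in control and 7.57, 7.25 and 7.13 in LCM. LCM replicate 1 lay above control replicate 3, so the groups overlapped. The log2 fold change of Mmp9 was -0.32 (95% interval -0.64 to -0.0045, unadjusted p = 0.0476, adjusted p = 0.249 from limma), and it did not pass without any of the 6 arrays (adjusted p from 0.168 to 0.536 from limma). Its array signal lay at the 45.8 percentile of all genes.
Mmp2 gave 12.60, 12.28 and 12.67 in control and 12.91, 12.85 and 12.91 in LCM, with every LCM value above every control value and control replicate 2 lowest. Its log2 fold change of 0.38 did not pass (95% interval 0.12 to 0.64, adjusted p = 0.114 from limma). With array weights in limma Mmp2 passed (adjusted p = 0.0425, log2 fold change 0.28), as did more members than in the main fit (8 of 65). More genes of the whole array also passed with these weights, so the larger count is not particular to the members. The counts over all genes are given with the processing below. Under the other 17 alternative settings Mmp2 did not pass. The signal of Mmp2 was at the 99.6 percentile of all genes, the highest place of any member. An array signal depends on the probes as well as on the transcript, so these percentiles place each transcript only roughly.

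Mmp14, the membrane enzyme that activates the precursor of Mmp2 on the cell surface and is needed for fat tissue to form in mice, had a log2 expression of 11.99 ± 0.07 (SD, n = 3) in control and 12.10 ± 0.07 (SD, n = 3) in LCM. Its log2 fold change of 0.11 had a 95% interval from -0.07 to 0.29. The other membrane-anchored members Mmp16, Mmp17, Mmp23 and Mmp24 ranged from -0.16 for Mmp23 to -0.02 for Mmp17, and none of the 5 passed (0 at an unadjusted p under 0.05 from limma). Mmp3, Mmp7 and Mmp10, the stromelysins and the matrilysin, were at 0.28, 0.07 and -0.11 and did not pass, unlike Mmp11. Mmp28, or epilysin, gave 8.51 ± 0.10 (SD, n = 3) in control and 8.80 ± 0.12 (SD, n = 3) in LCM with no overlap, and did not pass (adjusted p = 0.137 from limma). Mmp12, Mmp19, Mmp20 and Mmp21 lay between -0.13 and -0.001.

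None of the 4 tissue inhibitors passed, against 4.26% of all genes (1 lower at an unadjusted p under 0.05 from limma). Their median log2 fold change was -0.08. Timp2, which binds Mmp14 and so also serves in the activation of Mmp2, gave 11.09, 11.33 and 10.96 in control and 10.99, 10.71 and 10.68 in LCM. Only LCM replicate 1 lay within the control range. Its log2 fold change was -0.33 (95% interval -0.63 to -0.04, adjusted p = 0.204 from limma). Timp1, which is strongly induced in many inflamed tissues, had a log2 fold change of 0.10 (95% interval -0.12 to 0.31). Timp3, the inhibitor that stays bound to the matrix and also blocks ADAM and ADAMTS enzymes, was at -0.11, and Timp4 at -0.05. All 4 were in the upper part of the array signal, from the 65.4 percentile for Timp4 to the 93.6 percentile for Timp2.

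**Figure D2:**
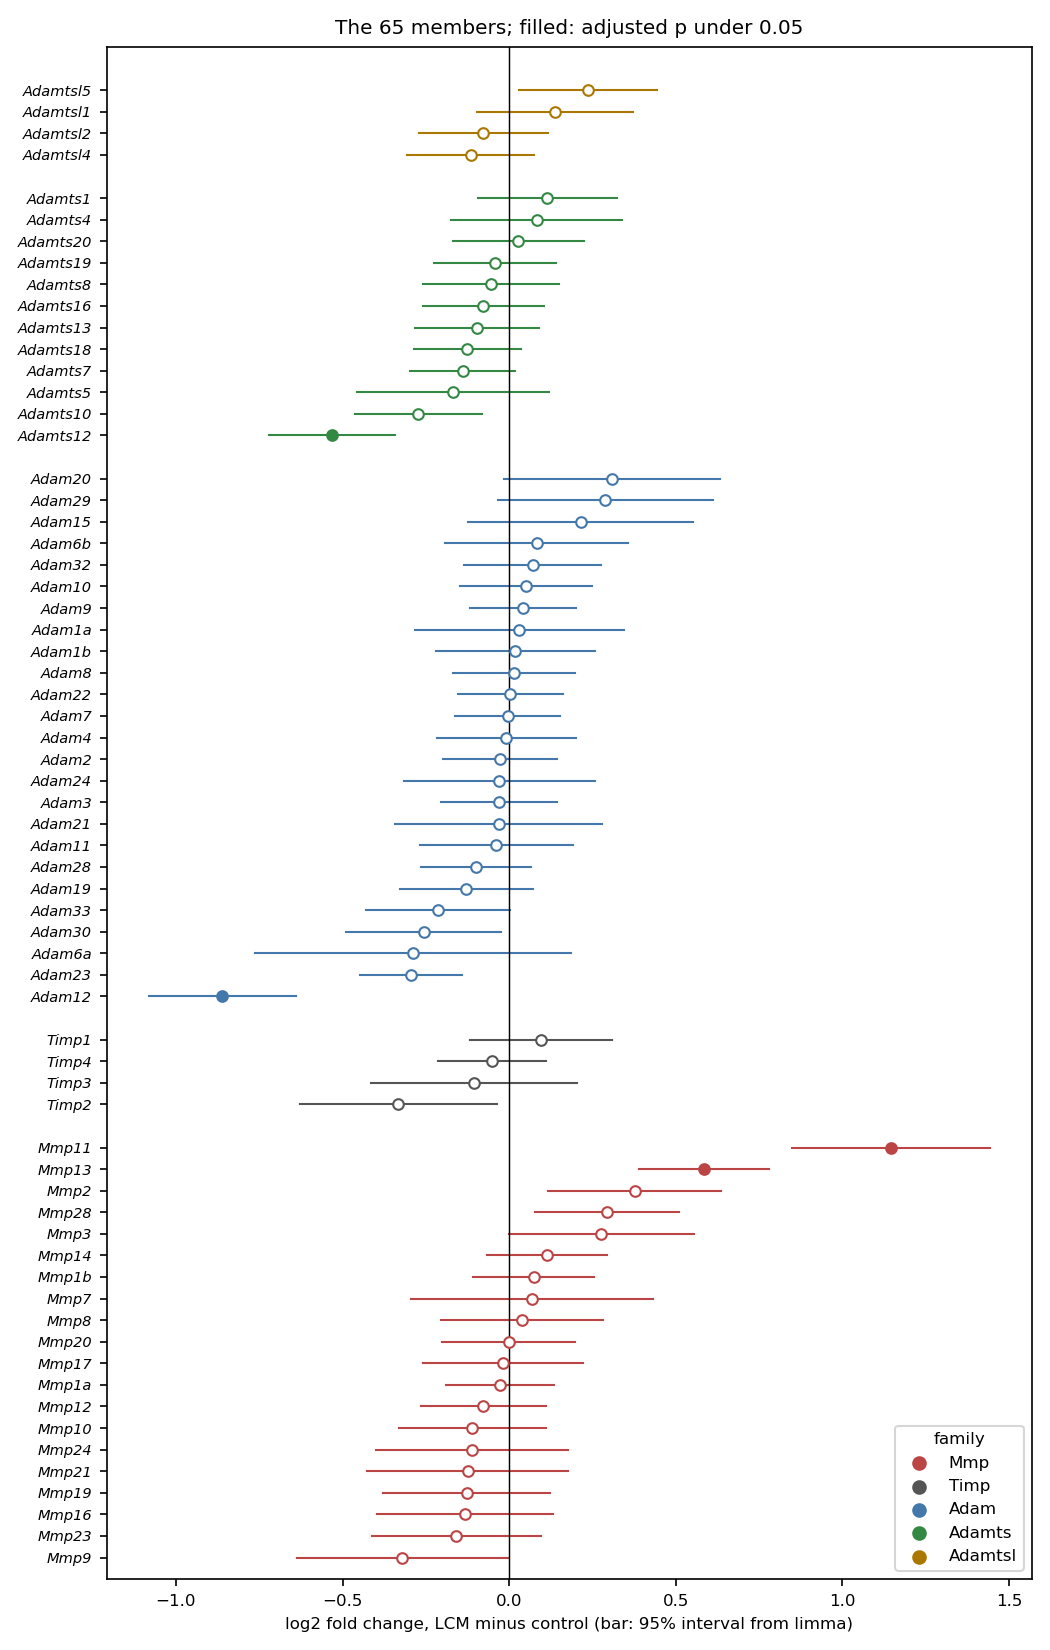
Log2 fold change of LCM over control (horizontal axis) for the 65 members, grouped by family and coloured by it, with bars for the 95% interval from limma and filled circles for an adjusted p under 0.05. The 4 filled circles are Mmp11 and Mmp13 on the right and Adam12 and Adamts12 on the left, and most other intervals cross 0.

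Among the 25 Adam genes, Adam12 fell and none rose (3 lower and 0 higher at an unadjusted p under 0.05 from limma), and the median log2 fold change was -0.01. The share that passed was 4%, against 4.26% of all genes. Without adjustment 9.25% of all genes were higher and 10.3% lower. The other proteases of this family that are found in somatic tissues did not pass. Adam9 and Adam10, sheddases present on most cells, had log2 fold changes of 0.04 and 0.05, with signals at the 94.3 and 93.6 percentile. Adam15 was at 0.21 (95% interval -0.12 to 0.55), and control replicate 2 at 10.60 stood below the other 5 arrays, which ran from 11.07 to 11.23. Adam8, Adam19, Adam28 and Adam33 lay between -0.21 and 0.01.
Adam23 belongs to the members that lack protease activity and act in the nervous system as adhesion and receptor proteins. It gave 11.20, 11.26 and 11.26 in control and 10.97, 10.93 and 10.93 in LCM, a small gap with very little spread. Its log2 fold change of -0.29 fell just short (95% interval -0.45 to -0.14, adjusted p = 0.0541 from limma) and passed without control replicate 2 (adjusted p = 0.0382 from limma). The related Adam11 and Adam22 were at -0.04 and 0.003. Of 14 Adam genes known from testis and sperm none passed, against 4.26% of all genes (1 lower at an unadjusted p under 0.05 from limma). In the lowest quartile of array signal lay 11 of these 14. Adam30 had the smallest p in this group, with a log2 fold change of -0.26 and an adjusted p of 0.211 from limma, and groups that did not overlap. Adam20 and Adam29 were higher by 0.31 and 0.29 at the 0.579 and 1.55 percentile of signal, and their intervals crossed 0. Adam1a with Adam1b and Adam6a with Adam6b are closely related pairs, and how far their transcripts are measured apart is not known here either.

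Of 12 Adamts genes, Adamts12 fell and none rose (2 lower and 0 higher at an unadjusted p under 0.05 from limma). Among all genes 1.97% fell, and the share lower without adjustment was 10.3%. The log2 fold change was below 0 in 9 of the 12, and in 8538 of all 14860 genes. The median of the 12 was -0.09, against -0.03 over all genes. Adamts7, the nearest relative of Adamts12, gave 7.36, 7.34 and 7.35 in control and 7.17, 7.21 and 7.26 in LCM. These values did not overlap, but the gap of -0.14 was small (adjusted p = 0.306 from limma). Adamts10, which binds fibrillin microfibrils, gave 9.29, 9.13 and 9.33 in control and 9.04, 8.97 and 8.92 in LCM. Its log2 fold change was -0.27 (adjusted p = 0.119 from limma), and without control replicate 2 it passed at -0.33 (adjusted p = 0.0344 from limma).
The enzymes that cut aggrecan and versican did not pass (0 of 5 at an unadjusted p under 0.05 from limma). Adamts1, at the 98.3 percentile of signal, had a log2 fold change of 0.11, and Adamts5 of -0.17. Adamts4 and Adamts8 were at 0.08 and -0.06, and Adamts13, which cleaves von Willebrand factor, was at -0.10. None of the 4 Adamtsl genes passed, against 4.26% of all genes (1 higher at an unadjusted p under 0.05 from limma). Adamtsl5 was at 0.24 (adjusted p = 0.199 from limma) and Adamtsl1 at 0.14, whereas Adamtsl2 and Adamtsl4, both linked to fibrillin microfibrils, were at -0.08 and -0.12.

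**Figure D3:**
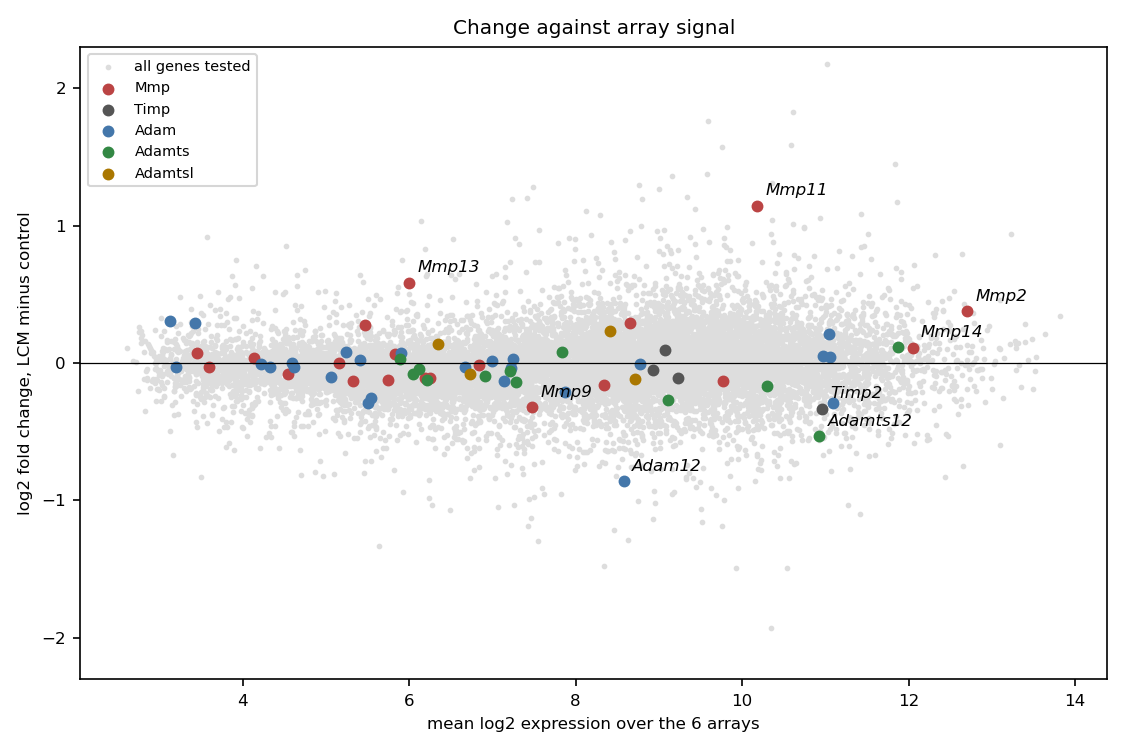
Log2 fold change (vertical axis) against the mean log2 expression over the 6 arrays (horizontal axis) for all 14860 genes in grey and for the members by family. Mmp11 at 1.15 and Adam12 at -0.86 lie farthest from 0 among the members, Mmp13 is dim, and Mmp2 and Mmp14 are bright with changes of 0.38 and 0.11.

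Members differed in array signal. By quartile of signal over all genes, 24 members lay in the lowest, 18 in the second, 11 in the third and 12 in the highest. The members that passed lay at different levels, with Mmp13 in the lowest quartile, Adam12 in the third, and Mmp11 and Adamts12 in the highest. Over all genes the share that passed was 0.485% in the lowest quartile and 7.83% in the highest. Members of the lowest quartile had a median absolute log2 fold change of 0.07 against 0.19 in the highest. Over all genes these medians were 0.085 and 0.143.

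Genes that activate, anchor or otherwise inhibit these proteases were described with a list of 38 genes, of which 32 were measured. Bmp1, the procollagen C-proteinase, fell by 0.48 on the log2 scale (95% interval -0.69 to -0.28, adjusted p = 0.0286 from limma), and none rose (3 higher and 2 lower at an unadjusted p under 0.05 from limma). Bmp1 passed in 1 of the 6 subsets of 5 arrays. The share that passed was 3.12%, against 4.26% of all genes. Furin, which activates Mmp11, was at -0.16 (adjusted p = 0.360 from limma). Rhbdf2, an escort of ADAM17, was at 0.43 (adjusted p = 0.0544 from limma). Reck, a membrane-anchored inhibitor, was at 0.08, and Bsg, a surface protein that induces Mmp genes, was at 0.14.
Of 31 measured genes for proteins that these families cut, 3 were higher and 4 lower at an unadjusted p under 0.05 from limma. Over all genes these shares were 9.25% and 10.3%. None of the 31 passed, against 4.26% of all genes. The nearest were Nid2, a basement membrane nidogen, at -0.39 (adjusted p = 0.0505 from limma), Lum, which encodes lumican, at -0.56 (adjusted p = 0.0580 from limma), and Nrg4, a growth factor secreted by fat cells, at -0.81 (adjusted p = 0.0586 from limma). Nid2, Lum, Nrg4 and also Eln each passed in 1 of the 6 fits with an array left out. The number of the 31 that fell was above 0 in 9 alternative settings and stayed at 0 in 9. It reached 3 without control replicate 2, with arrays centred or quantile-normalized again, with array weights and with the lowest quartile of genes left out. Over all genes the number that fell was also higher under these settings, from 348 to 975 against 292.

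**Figure D4:**
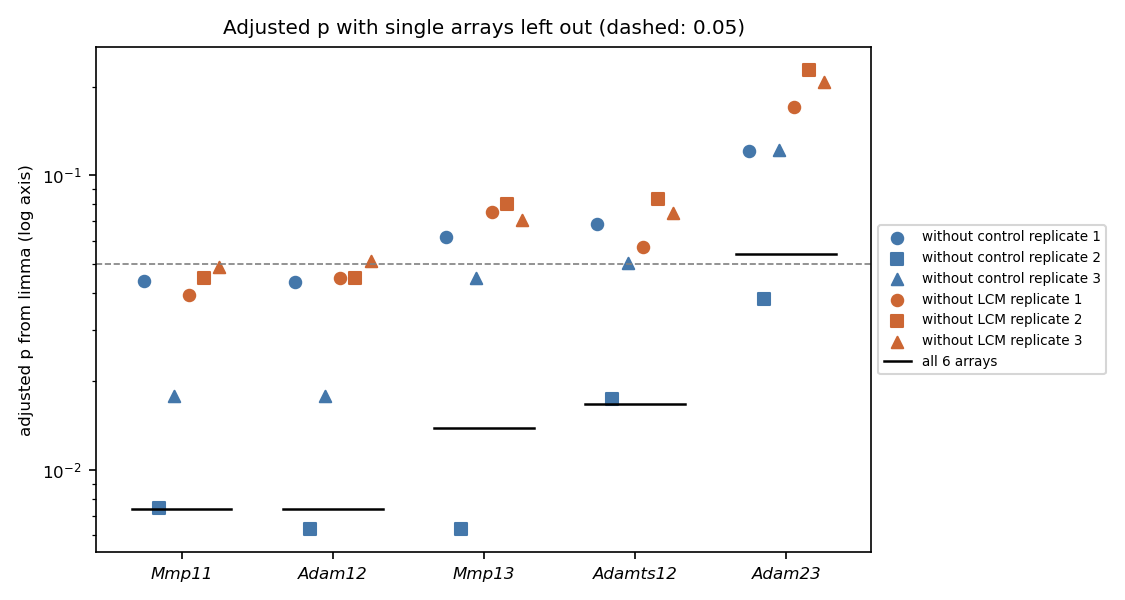
Adjusted p from limma (vertical log axis) of 5 members with each array left out in turn, with a black line for all 6 arrays and a dashed line at 0.05. Mmp11 stays under the dashed line in all 6 subsets, whereas the points of Adam12, Mmp13, Adamts12 and Adam23 lie on both sides of it.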

How the data were processed

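The deposited table held log2 expression, computed by the authors with RMA (background correction, quantile normalization and probe summary), with a column for each of the 6 arrays. The array is a Mouse Gene ST GeneChip according to the methods. For the RMA version and settings, any filter and the build: not given in the sources used here. RMA shrinks differences of dim transcripts, so small fold changes at low signal may be understated.

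Of 23332 transcripts, 14996 had a single symbol in the platform annotation, 1019 had several and 7317 had none listed. For the 135 genes with several transcripts, the brightest was kept. All 65 members were found in the RefSeq table of GRCm38.p6. LCM and control were compared with limma 3.58.1 in R 4.3.3 (two-sided, no block). The fit was run on simulated data with planted changes to check the code, and no result given here rests on that run. Intervals are 95% intervals from the fit. The methods give a paired t-test for experiments in general, which was run as an alternative beside an unpaired form. Other alternatives were the replicate block, the choice of rows, dim filters, renormalization, centring, a trend, a robust prior, array weights and single arrays left out.

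Named genes were members that passed, Mmp9, all Timp genes, and in each other family the 3 with the smallest p and the 3 with the highest mean, plus up to 4 that passed in each companion list. Further members of a group were added after their values were seen. Members, lists and motifs were chosen with earlier results of these data known. Promoter windows came from RefSeq. Python 3.11.15, pandas 2.3.3 and matplotlib 3.10.9 were used.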

Additional observations from a re-analysis of the deposited data

How the results depend on the processing

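The 4 genes that passed among the members were the same with renormalization, a robust prior, the replicate block and all rows with a single gene. Adam23 joined them with array medians centred, with the mean of the rows of a gene and with a trend. Filters on dim genes left 1 member higher, since they removed Mmp13, and 3 lower. With array weights 3 members were higher and 5 lower. The t-tests after adjustment gave 0 higher and 1 lower unpaired (Adam23), and 0 of either paired. Leaving out single arrays gave 1 to 2 members higher and 0 to 4 lower. Of all 14860 genes, 341 rose and 292 fell in the main fit. Array weights gave 889 higher and 975 lower, the unpaired t-test 104 and 66 and the paired t-test 0 and 0 (1761 at an unadjusted p under 0.05). Leaving out single arrays gave 39 to 680 higher and 21 to 652 lower, highest without control replicate 2. The cause of these differences was not tested. Centring moved the split over all genes to 232 higher and 408 lower.

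Replicate numbers were not shown to pair the arrays, since deviations of same-numbered arrays correlated at -0.234, 0.0552 and 0.112. With the replicate number as a block, 2 members were higher and 2 lower, and 173 genes were higher and 151 lower over the whole table, and Bmp1 did not pass. Only 3 arrays per group and the low signal of many members limit what can be detected.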

Other observations

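Adam23 was the member with a second transcript row. That row had a mean log2 expression of 10.97 and a log2 fold change of -0.46 (unadjusted p = 0.00358 from limma), against -0.29 for the row used, so both pointed the same way. Closely related Adam genes shared 4 rows that named several genes. The row of Adam25 and Adam39 had a log2 fold change of -0.17, the rows of Adam26a and Adam26b 0.09 and -0.18, and the row of Adam34 with its near copies -0.28. None of these rows passed (adjusted p from 0.533 to 0.772 from limma over all transcripts).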
